A study of Mus musculus with 11 samples.

Results

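The 9 genes described here, Atf4, Atf5, Ddit3, Xbp1, Chac1, Trib3, Asns, Sesn2 and Ppp1r15a, are genes of the integrated stress response, and they were taken by gene symbol from the 32285 gene rows of the matrices. Each of the 9 symbols was found. Ddit3 stood under a pair of identifiers, of which the shorter, nested gene model held 0 UMIs (unique molecular identifiers, 1 for each RNA molecule read), so the other identifier was used. Dissociated brain cells of 11 mice were read by droplet single-cell RNA sequencing (10x Chromium 3' chemistry), with 1 library per mouse, and the groups were WT or Lrg1 knockout mice after sham surgery or after MCAO/R, that is, filament occlusion of the middle cerebral artery followed by reperfusion. Raw UMIs were summed over the cells of 1 type in 1 mouse, and mice were the replicates.

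The sham + WT group had 3 mice and 31552 retained cells, the MCAO/R + WT group 2 mice and 21273 cells, the sham + Lrg1-/- group 3 mice and 17319 cells, and the MCAO/R + Lrg1-/- group 3 mice and 55200 cells. Lrg1-/- mice carried a conventional deletion of Lrg1 in all cells, backcrossed to C57BL/6N, and WT mice were adult C57BL/6 males bought from another supplier. The methods also state different ages for the WT and the Lrg1-/- mice. Genotype therefore cannot be told apart from colony, substrain and age. The labels give neither age nor reperfusion time, and by the methods the right brain was minced and enzymatically digested. Lrg1 itself had 192 to 662 UMIs per sham + WT library, 16233 to 17868 per MCAO/R + WT library and 0 or 1 in the 6 Lrg1-/- libraries.

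The libraries of the genotypes also differed in stray RNA and in dissociation genes, without overlap in microglia, and in depth, with overlap. Median UMIs per cell ran from 6322 to 11221.5 in WT libraries and from 3162 to 7616.5 in Lrg1-/- libraries. In microglia, the summed level of 5 haemoglobin genes, which red blood cells release, was 15.8 to 22.4 CPM (the gene's UMIs relative to all UMIs of the sum) in WT mice and 6383 to 28910 CPM in Lrg1-/- mice. The summed level of 12 immediate early genes, which tissue dissociation is known to induce, was 35010 to 40360 CPM in WT microglia and 11380 to 21860 CPM in Lrg1-/- microglia. Differences between genotypes below therefore cannot be told apart from these differences between the libraries, whose origin the labels and methods do not give. A cluster of 9288 cells was named red blood cells by its markers and is called the haemoglobin-led cluster below, since the name holds for 1 genotype. There the 5 haemoglobin genes summed to 121900 to 960900 CPM in its Lrg1-/- cells and to 37.4 to 629.8 CPM in its WT cells (151 after sham and 309 after MCAO/R). Any 2 libraries shared 5 to 146 cell barcodes.

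The integrated stress response begins when any of several kinases phosphorylates the translation factor eIF2alpha, which lowers protein synthesis at large while the transcription factor ATF4 is made more. ATF4 then turns on genes for amino acid supply, redox balance and, through CHOP, cell death, and the phosphatase subunit GADD34 closes the loop by removing the phosphate. Endoplasmic reticulum stress, amino acid shortage, haem shortage and mitochondrial stress all feed into it, and ischaemic brain is a tissue in which it is well known.

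The members fall into 3 roles. Atf4, Atf5, Ddit3 (which encodes CHOP) and Xbp1 encode transcription factors, Xbp1 being the factor of the IRE1 branch of the unfolded protein response. Chac1 (a glutathione-degrading enzyme), Trib3 (a pseudokinase), Asns (asparagine synthetase) and Sesn2 (a leucine sensor that restrains mTORC1) are target genes. Ppp1r15a, which encodes GADD34, is the feedback gene. On the mm10 build, Atf4 lies at chr15:80255184-80257541, Asns at chr6:7675169-7693254, Sesn2 at chr4:132492032-132510501, Xbp1 at chr11:5520659-5525893 and Ppp1r15a at chr7:45522916-45526268 (GENCODE M21 gene bounds, all protein coding).

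The promoter stretches below are shown because they hold the DNA elements by which such genes are classically read: the core TGATGNAA of the CEBP-ATF response element, bound by ATF4 with a CEBP partner, and the cAMP response element TGACGTCA, bound by CREB and ATF factors. The 250 bases before each RefSeq start (GRCm38.p6) were searched on both strands, and the capitals mark the match. All 9 members had a window, 10 windows in all. The core was found for 2 members, Chac1 (on the reverse strand, 193 to 186 bases before the start) and Asns (23 to 16 bases before it), and in 3.45% of all 32851 windows. The cAMP response element was found for Ppp1r15a, 12 to 5 bases before its start, and in 1.55% of all windows. The XBP1/ATF6 element TGACGTGG was in no member's window and in 0.56% of all windows. None of these matches overlaps another, and the Asns stretch lies inside the gene as GENCODE bounds it.
Chac1, chr2:119351004-119351101, plus strand: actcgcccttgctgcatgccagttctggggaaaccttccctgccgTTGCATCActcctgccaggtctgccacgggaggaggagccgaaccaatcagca
Asns, chr6:7693214-7693243, minus strand: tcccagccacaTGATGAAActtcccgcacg
Ppp1r15a, chr7:45526269-45526325, minus strand: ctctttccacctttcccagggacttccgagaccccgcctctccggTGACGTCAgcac

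Where each gene was read was described first, in the 3 sham + WT mice and the 14 cell types that had 20 or more cells in at least 2 of these mice. Levels are CPM scaled by edgeR's TMM factors, and levels of different genes are not compared, since 3' counts depend on each gene's end. Atf4 was highest in endothelial cells, at 209 ± 33.6 CPM (SD, n = 3), above border-associated macrophages (169 ± 12.3 CPM) with no overlap between mice, and lowest in ciliated ependymal cells (47.3 CPM). Atf5 stood at 270 ± 47.0 CPM in vascular smooth muscle cells, and the next type, fibroblasts, was at 44.4 CPM. Ppp1r15a was highest in microglia at 1956 ± 213 CPM, followed by vascular smooth muscle cells (1400 ± 32.2 CPM) and border-associated macrophages (721 ± 133 CPM), and oligodendrocytes were lowest (112 CPM). These first 3 Ppp1r15a levels did not overlap between mice.

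Among the other members, Ddit3 was at 79.3 ± 9.55 CPM in microglia and 78.4 CPM in vascular smooth muscle cells, which overlapped, and lowest in astrocytes (23.2 CPM). Xbp1 reached 134 ± 12.6 CPM in microglia and 133 CPM in fibroblasts, again overlapping, with astrocytes lowest at 36.2 CPM. Asns was highest in neurons and neuroblasts (18.9 ± 5.13 CPM), ahead of endothelial cells (9.58 ± 0.576 CPM) without overlap. Dividing cells were part of that type. Of its 882 sham + WT cells, 278 were in a cluster led by Pclaf and Rrm2 and 92 in one led by Cenpf and Top2a. Trib3 led in endothelial cells (4.60 ± 0.873 CPM) and Sesn2 in microglia (20.99 ± 4.06 CPM). Chac1 was rare, with 5.61 ± 4.25 CPM in neurons and neuroblasts and 0 UMIs in several types. Of the 13 steps between neighbouring types in each order, 4 were free of overlap for Asns, 3 for Atf4, 3 for Atf5, 2 for Ppp1r15a, 1 each for Ddit3, Chac1 and Trib3, and 0 for Xbp1 and Sesn2.

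**Figure D1:**
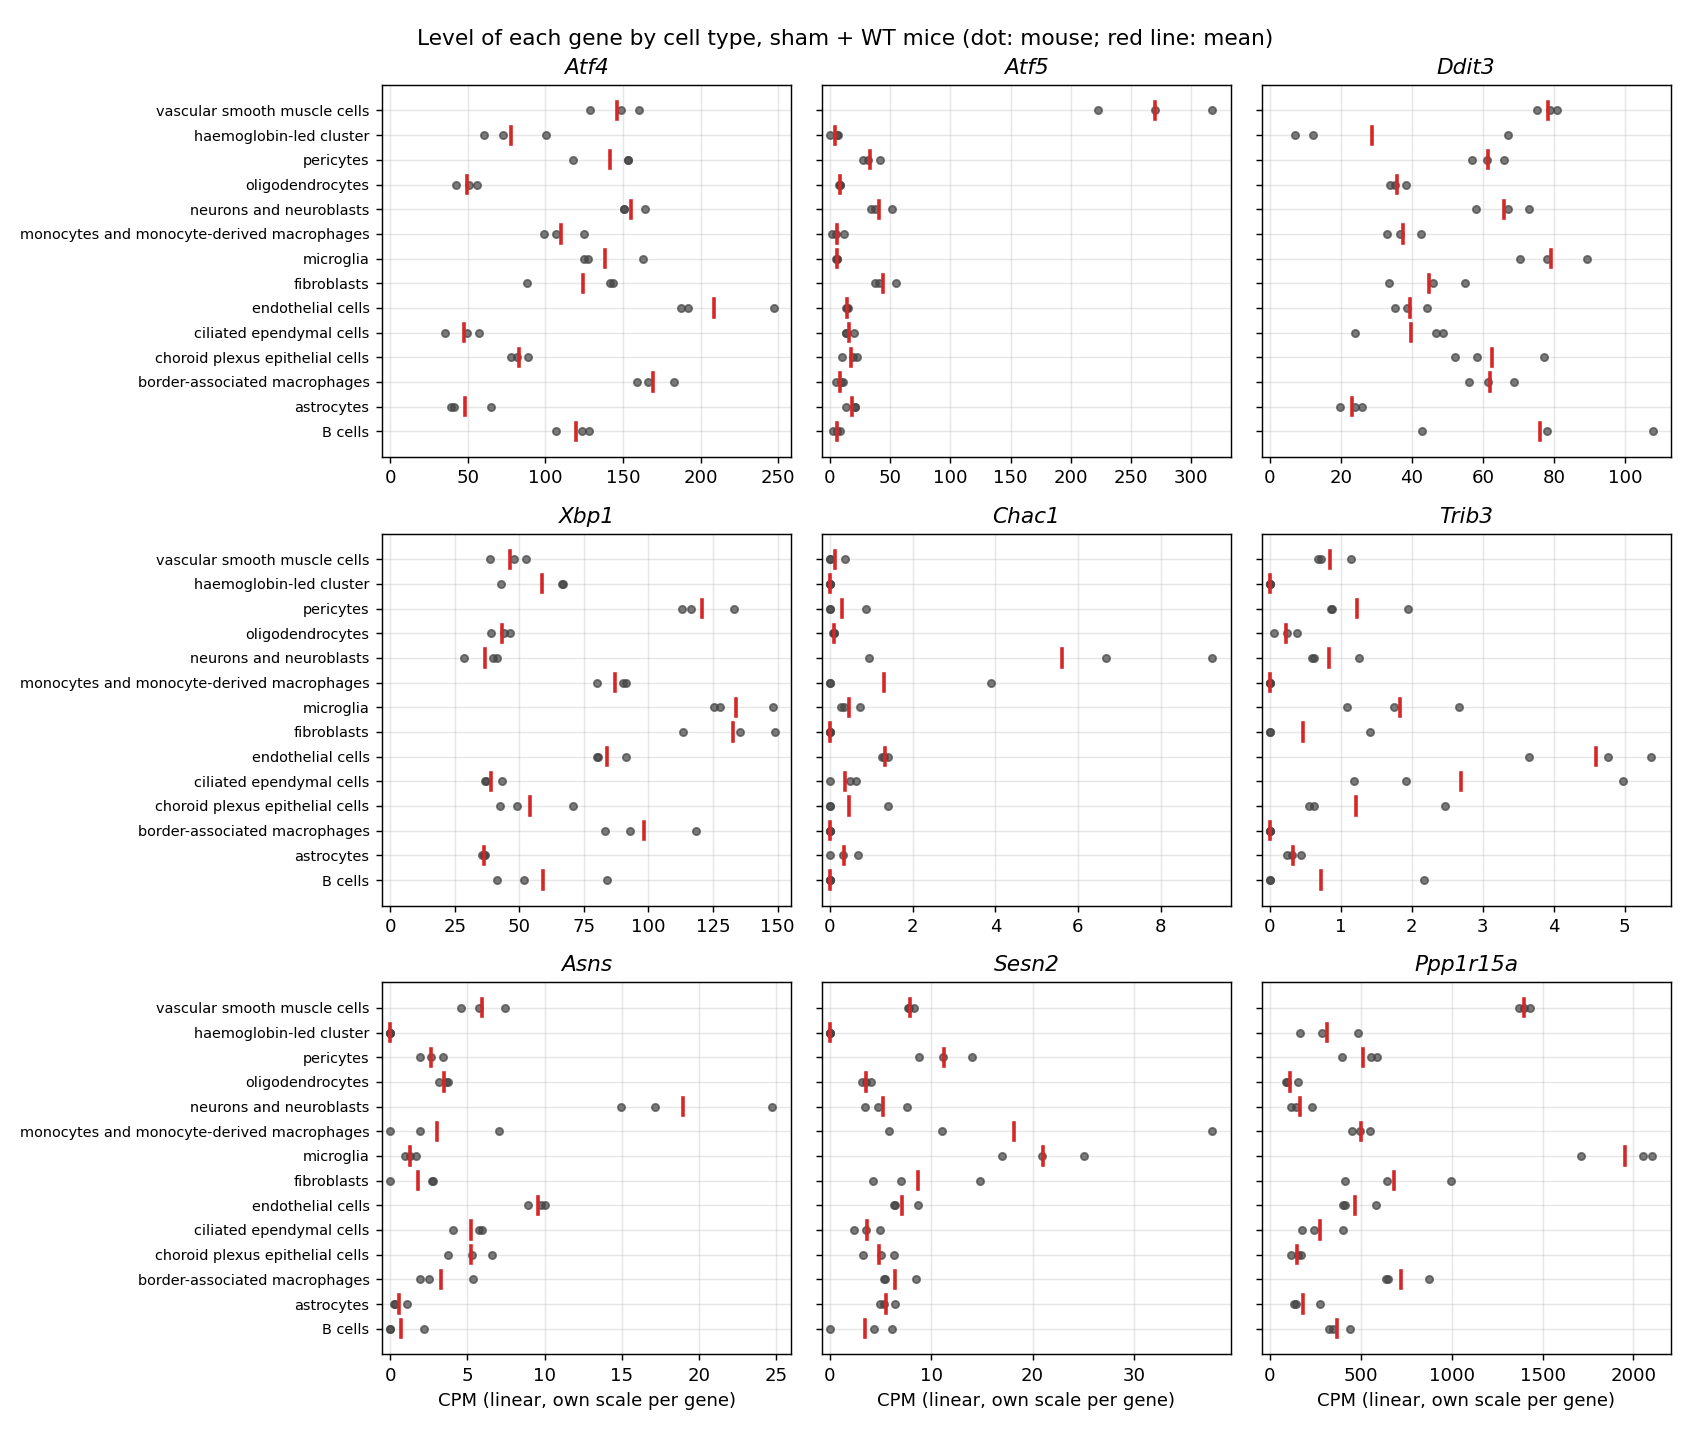
Level of each of the 9 genes (x axis, CPM, linear, own scale per gene) in 14 cell types (y axis) of the sham + WT group; each dot is 1 mouse and the red line the mean. Atf5 stands apart in vascular smooth muscle cells (270 CPM), Atf4 is highest in endothelial cells (209 CPM) and Ppp1r15a in microglia (1956 CPM).

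For each comparison, 11 cell types (the haemoglobin-led cluster among them) could be fitted on all groups and 13 for the genotype effect after MCAO/R, with edgeR's quasi-likelihood test on the summed counts. A call required a Benjamini-Hochberg adjusted p under 0.05, taken over all genes of the cell type, together with a fold change beyond 0.25 on the natural-log scale in either direction. Stroke in WT mice gave 12 calls among 80 gene by cell type combinations that passed the filter on low counts (of 99), 10 higher and 2 lower, where 4.65% of all genes' combinations were called higher and 4.30% lower. There were 13 higher and 7 lower without that filter, and 6 higher and 2 lower without sham + WT replicate 3. Stroke in Lrg1-/- mice gave 11 calls of 80, 7 higher and 4 lower, beside 5.92% and 4.93% of all combinations. Without MCAO/R + Lrg1-/- replicate 1 these were 12 higher and 2 lower, and without MCAO/R + Lrg1-/- replicate 2 or sham + Lrg1-/- replicate 1 they were 3 higher and 3 lower. The genotype effect after MCAO/R gave 10 calls of 93 (of 117 combinations), 4 higher and 6 lower, beside 7.32% and 6.59%. Without MCAO/R + WT replicate 2 this became 0 higher and 4 lower, without MCAO/R + WT replicate 1 it was 3 and 3, and without MCAO/R + Lrg1-/- replicate 1 it was 7 and 5. The genotype effect after sham gave 7 calls of 80, 4 higher and 3 lower, beside 4.75% and 4.69%. This split depended on the setting. Without cells over 1% haemoglobin 3 were higher and 7 lower, and with cells thinned to 1000 UMIs 0 were higher and 3 lower. There were 4 higher and 8 lower without the filter on low counts, 7 higher and 5 lower when only the groups compared were fitted, and 5 higher and 5 lower by DESeq2. The interaction, which asks whether the stroke effect differs by genotype, gave 1 call of 80 beside 1.68%. Microglia held 16 and oligodendrocytes 10 of these 41 calls. These are 39% and 24.4%, beside 29.9% and 20.1% of the calls over all genes. The stroke comparisons share no mice with each other, but each shares mice with the genotype comparisons.

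**Figure D2:**
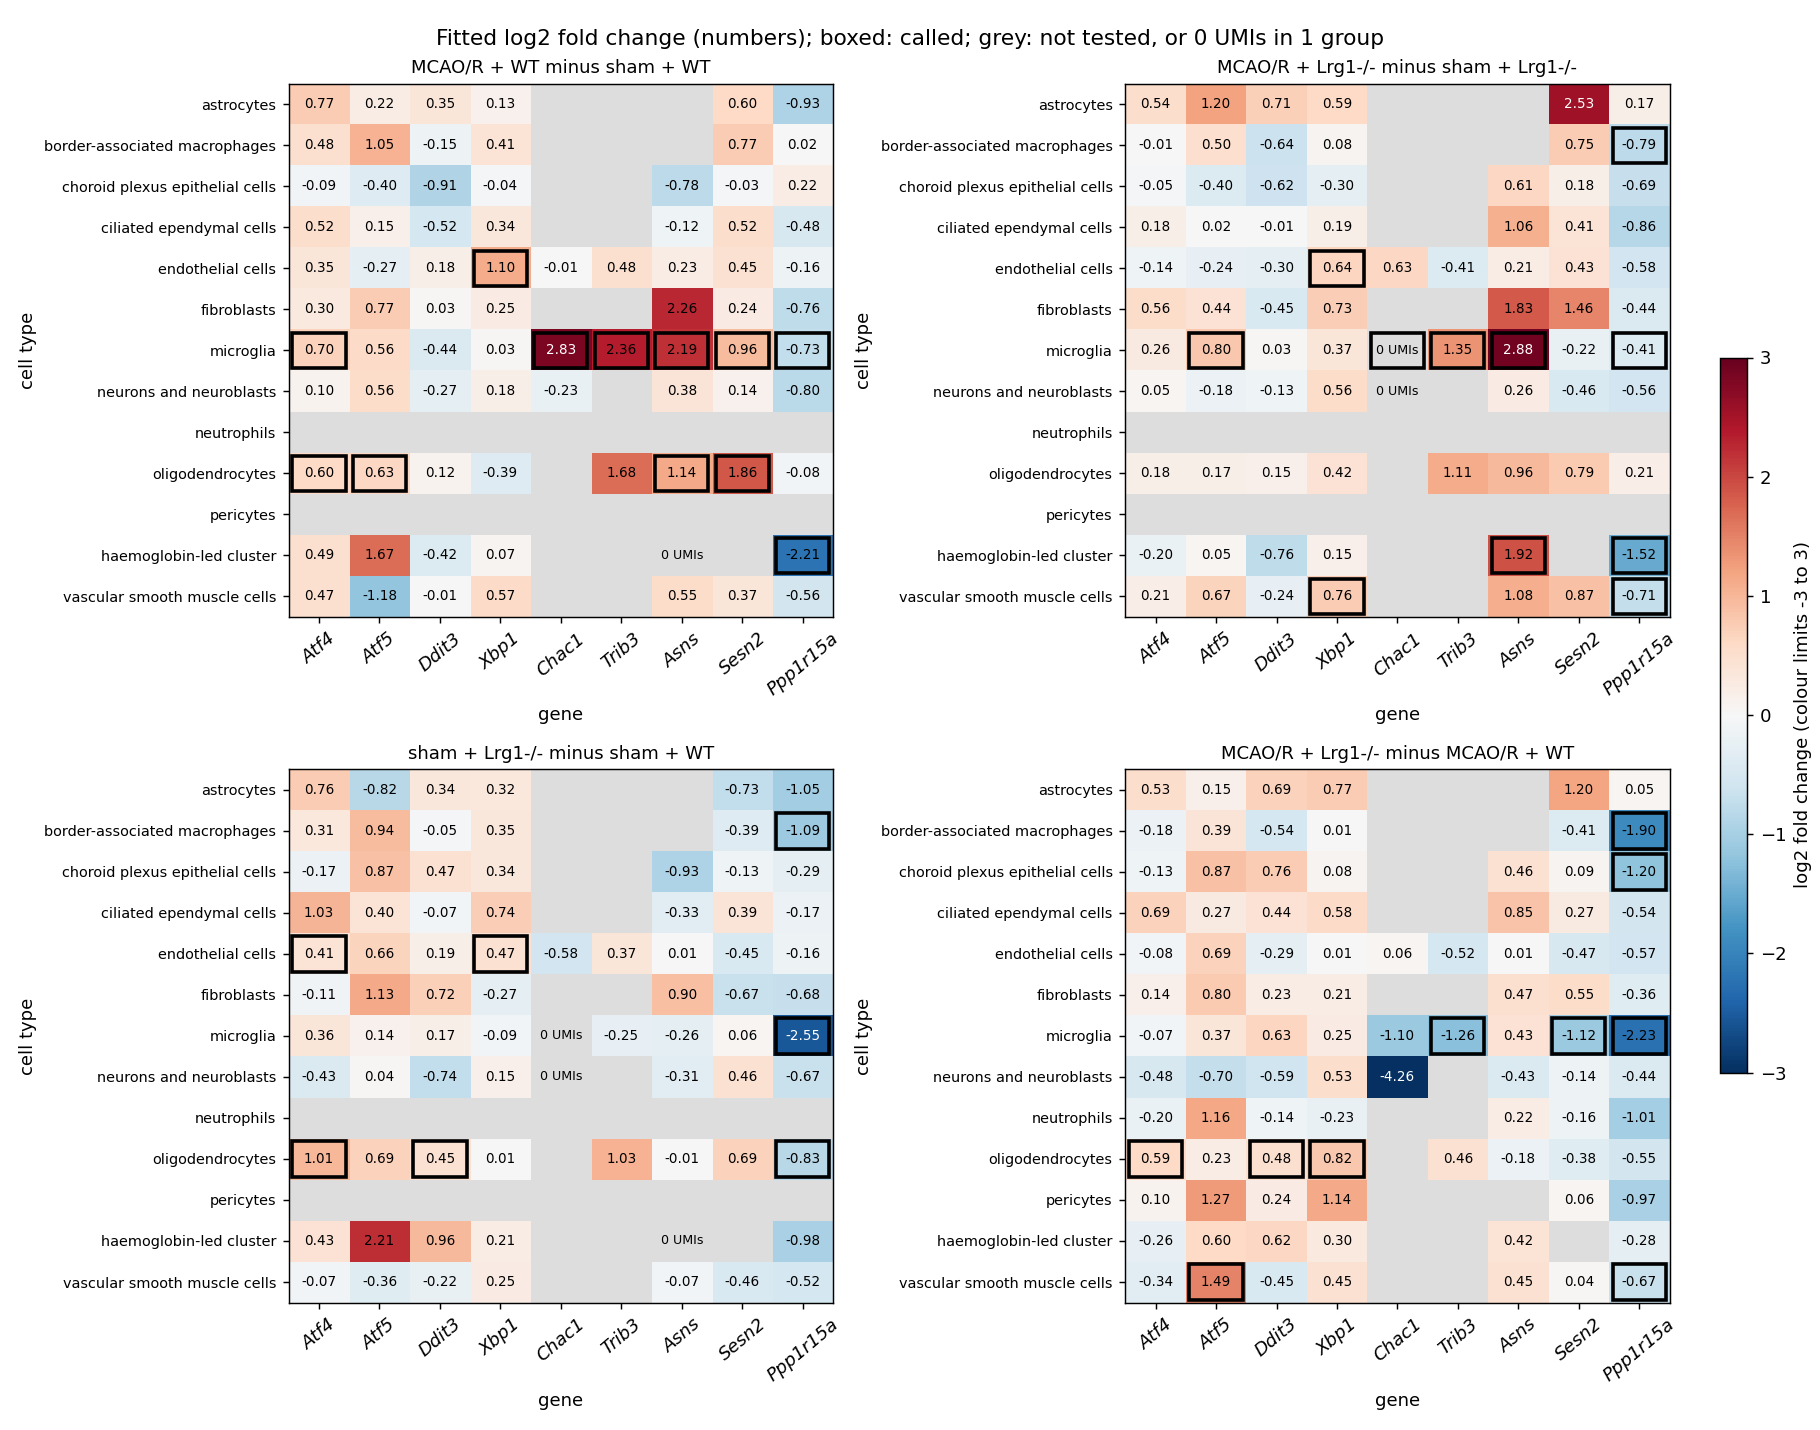
Fitted log2 fold change of each gene (columns) in each cell type (rows) for the 4 comparisons named above the panels; numbers and colour give the log2 fold change, boxes mark called genes, and grey marks genes not tested or with 0 UMIs in 1 group. In microglia of WT mice 5 members are boxed as higher and 1 as lower after MCAO/R, and Ppp1r15a in microglia is boxed as lower in all 4 panels.

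In WT microglia, the target genes Chac1, Trib3, Asns and Sesn2 and the factor Atf4 rose after MCAO/R, and Ppp1r15a fell. That is 5 higher and 1 lower of 9 tested, in a comparison in which 21.3% of 18340 genes were called. The median log2 fold change was 0.70 over the 9 members and 0.05 over all genes. Microglia came from partly different clusters in these groups. The cluster led by Lpl, Tnf and Msr1 held 3383 MCAO/R + WT and 121 sham + WT cells, and clusters led by P2ry12, Ifnb1 and Ifih1 were mainly sham cells. Monocyte marker genes summed to 15.9 to 17.8 CPM in sham + WT and 29.6 to 86.7 CPM in MCAO/R + WT microglia, whose part in the changes was not tested.

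Chac1 was at 0.73, 0.28 and 0.35 CPM in the 3 sham + WT mice and at 4.22 and 2.25 CPM in the 2 MCAO/R + WT mice, from 28, 11, 13, 208 and 92 UMIs. Both stroke mice were above all sham mice, and Chac1 rose by 2.83 on the log2 scale (SE 0.497, edgeR adjusted p = 0.00211). Trib3 was at 2.67, 1.085 and 1.75 CPM after sham and at 10.9 and 7.96 CPM after MCAO/R. The pseudokinase gene thus had separate groups, and its log2 fold change was 2.36 (SE 0.377, edgeR adjusted p = 0.000671). Asns was at 1.67, 0.93 and 1.29 CPM against 8.16 and 3.67 CPM. Asparagine synthetase RNA was therefore higher in both stroke mice, by 2.19 (SE 0.437, edgeR adjusted p = 0.00317), although the 2 mice differed from each other; without MCAO/R + WT replicate 1 the value was 1.5 and was no longer called (edgeR adjusted p = 0.0509).

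Sesn2 was at 25.1, 17.0 and 20.9 CPM in sham + WT microglia and at 41.8 and 39.9 CPM in MCAO/R + WT microglia. It had a log2 change of 0.96 (SE 0.157, edgeR adjusted p = 0.000795). The 2 stroke mice lay close together and well above the sham mice. Atf4 was at 163, 128 and 125 CPM against 231 and 220 CPM and rose by 0.70 (SE 0.172, edgeR adjusted p = 0.011), which was not called without sham + WT replicate 3 (0.63, edgeR adjusted p = 0.0536) or without MCAO/R + WT replicate 1 (0.67, edgeR adjusted p = 0.0593). The amount of ATF4 protein, which is set mainly by translation, was not measured. Ppp1r15a moved the other way, from 2052, 2103 and 1712 CPM to 1029 and 1328 CPM, a log2 change of -0.73 (SE 0.156, edgeR adjusted p = 0.00473), lost without MCAO/R + WT replicate 1 (-0.56, edgeR adjusted p = 0.0726). Ddit3 was at 70.4 to 89.4 CPM after sham and at 51.0 and 65.8 CPM after MCAO/R, with no overlap but no call (-0.44, SE 0.274, edgeR adjusted p = 0.291). Xbp1 (0.03, SE 0.183) and Atf5 (0.56, SE 0.236) were not called in WT microglia.

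**Figure D3:**
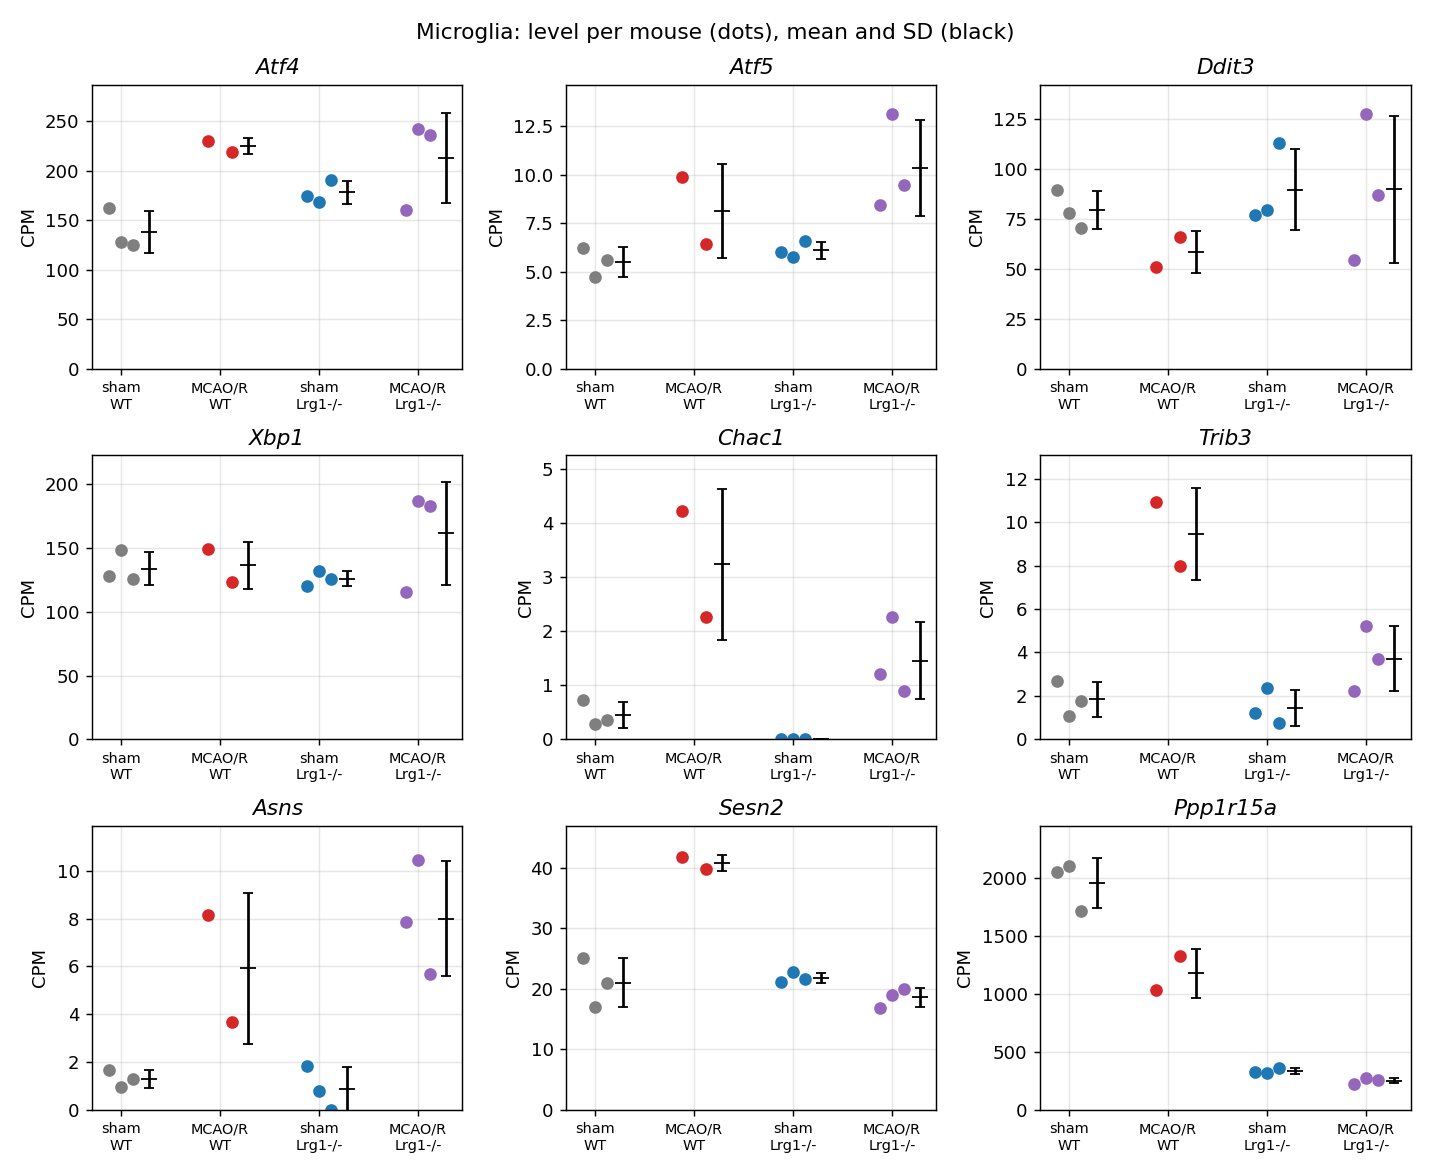
Level of the 9 genes in microglia (y axis, CPM from 0, own scale per gene) in the 4 groups (x axis); coloured dots are mice, the black mark and bar are mean and SD. Sesn2 is at 39.9 and 41.8 CPM in the MCAO/R + WT mice and at 16.9 to 25.1 CPM in all other mice, and Ppp1r15a is at 224 to 361 CPM in the 6 Lrg1-/- mice and at 1029 to 2103 CPM in the 5 WT mice.

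Microglia of Lrg1-/- mice also had higher Chac1, Trib3 and Asns after MCAO/R, together with Atf5, a factor tied to mitochondrial stress, and lower Ppp1r15a. That is 4 higher and 1 lower of 9 tested, in a comparison in which 35.9% of genes were called. The members' median log2 fold change was 0.37 and that of all genes 0.04, a value that moved by -0.11 to -0.07 under RLE scaling. Cluster make-up again differed, with 5383 MCAO/R + Lrg1-/- and 60 sham + Lrg1-/- cells in the cluster led by Lpl, Tnf and Msr1, and haemoglobin and choroid plexus RNA was present in both groups. An unnamed cluster led by Arg1 and Gpr84, with microglia as its second closest type, was left out. It held 13271 MCAO/R + Lrg1-/- and 336 sham + Lrg1-/- cells, beside 8165 and 2048 named microglia.

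Asns was at 1.85, 0.79 and 0 CPM in sham + Lrg1-/- microglia and at 7.85, 10.5 and 5.69 CPM after MCAO/R, a log2 change of 2.88 (SE 0.554, edgeR adjusted p = 0.00128). All 3 stroke mice were above all 3 sham mice. Chac1 had 0 UMIs in the 3 sham + Lrg1-/- mice and 6, 81 and 33 UMIs in the 3 MCAO/R + Lrg1-/- mice (1.21, 2.26 and 0.89 CPM), which is at least 6.53-fold higher against a floor of 3 counts over the sham group (edgeR adjusted p = 0.00467). Without sham + Lrg1-/- replicate 1 or 2 or MCAO/R + Lrg1-/- replicate 2 the Chac1 bound was 3.501-fold, 4.24-fold or 4.03-fold. Trib3 was at 1.23, 2.38 and 0.77 CPM against 2.21, 5.22 and 3.71 CPM, so that the groups overlapped, and rose by 1.35 (SE 0.473, edgeR adjusted p = 0.0388). This Trib3 call was lost in 5 fits that left out 1 mouse: sham + WT replicate 3 (1.35, edgeR adjusted p = 0.0512), sham + Lrg1-/- replicate 1 (1.16, 0.157) or replicate 5 (1.16, 0.105), and MCAO/R + Lrg1-/- replicate 2 (1.05, 0.138) or replicate 5 (1.40, 0.0521), edgeR adjusted p second in each.

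Atf5 was at 6.002, 5.74 and 6.56 CPM in sham + Lrg1-/- microglia and at 8.45, 13.1 and 9.46 CPM after MCAO/R, and rose by 0.80 (SE 0.249, edgeR adjusted p = 0.0233). Without MCAO/R + Lrg1-/- replicate 2 it was 0.58 (edgeR adjusted p = 0.11), and without sham + Lrg1-/- replicate 1 or 2 it was 0.78 (0.0749) or 0.69 (0.0863). Ppp1r15a was at 322, 318 and 361 CPM against 224, 270 and 260 CPM, without overlap, and fell by 0.41 (SE 0.138, edgeR adjusted p = 0.0348). That call was lost without sham + Lrg1-/- replicate 1 (-0.43, edgeR adjusted p = 0.0616) or replicate 5 (-0.35, 0.105) and without MCAO/R + Lrg1-/- replicate 1 (-0.35, 0.0816). Thinning each cell to 1000 UMIs also ended the calls of Trib3 (1.17, edgeR adjusted p = 0.371), Atf5 (0.35, 0.618) and Ppp1r15a (-0.41, 0.0564) in Lrg1-/- microglia. RLE scaling ended that of Trib3 (1.24, 0.0513), and fitting without the filter on low counts that of Ppp1r15a (-0.36, 0.0718). Sesn2 went from 21.1, 22.8 and 21.6 CPM to 16.9, 19.0 and 19.98 CPM (-0.22, SE 0.157, edgeR adjusted p = 0.304). Atf4 was at 169 to 191 CPM and 160 to 242 CPM (0.26, SE 0.158, edgeR adjusted p = 0.219), and the MCAO/R + Lrg1-/- mice spread more widely than the sham mice for Atf4, Ddit3 and Xbp1.

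Sesn2 was the 1 member whose stroke effect in microglia differed by genotype in the test of the difference itself, with an interaction of -1.18 on the log2 scale (SE 0.222, edgeR adjusted p = 0.0112), in a test that called 8.72% of genes. It was the only call among the 80 combinations, held in each fit that left out 1 mouse and was not called once each cell was thinned to 1000 UMIs (-0.95, edgeR adjusted p = 0.121). With that thinning 1 other combination of the 54 tested was called, in the opposite direction. For Atf4 the interaction in microglia was -0.44 (SE 0.235, edgeR adjusted p = 0.26), for Trib3 -1.01 (SE 0.627, 0.334), for Asns 0.70 (SE 0.741, 0.596) and for Ppp1r15a 0.33 (SE 0.206, 0.346). These errors are wide, so a difference in the stroke effect of Trib3 or Asns was not detectable with these mice rather than shown to be absent.

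Between genotypes after MCAO/R, 3 of 9 members were lower in Lrg1-/- microglia, Ppp1r15a, Sesn2 and Trib3, and 20.6% of all genes were called. The microglial cluster led by Lpl, Tnf and Msr1 held 5383 MCAO/R + Lrg1-/- and 3383 MCAO/R + WT cells, and the one led by Gm46224 and Nlrp3 held 528 and 2110. Sesn2 was at 18.6 ± 1.57 CPM (SD, n = 3) in MCAO/R + Lrg1-/- and 40.8 ± 1.36 CPM (n = 2) in MCAO/R + WT mice, a log2 change of -1.12 (SE 0.159, edgeR adjusted p = 0.000476). Trib3 was at 3.72 ± 1.51 against 9.45 ± 2.11 CPM (-1.26, SE 0.375, edgeR adjusted p = 0.0309), a call lost without MCAO/R + WT replicate 1 (-1.01, 0.121) or replicate 2 (-1.46, 0.0505) and without MCAO/R + Lrg1-/- replicate 1 (-1.08, 0.0602) or replicate 5 (-1.19, 0.0676), and when only the groups compared were fitted (-1.34, 0.0542). Ppp1r15a was at 251 ± 24.6 against 1179 ± 211 CPM, a log2 change of -2.23 (SE 0.153, edgeR adjusted p = 4.01e-06). After sham surgery Ppp1r15a was the 1 member called, at 333 ± 24.0 in Lrg1-/- and 1956 ± 213 CPM in WT microglia (-2.55, SE 0.145, edgeR adjusted p = 2.63e-07), where 22.2% of genes were called. Chac1 had 0 UMIs in sham + Lrg1-/- and 28, 11 and 13 UMIs in sham + WT microglia, at least 1.87-fold lower and not called (edgeR adjusted p = 0.0705). This bound was 1.002-fold without sham + Lrg1-/- replicate 1 and 1.21-fold without replicate 2.

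Ppp1r15a is itself known to respond quickly to many stresses, and between genotypes the immediate early genes of microglia differed in its direction. From sham + WT to MCAO/R + WT microglia, where Ppp1r15a fell, the summed immediate early genes overlapped (37570 to 40360 against 35010 and 38210 CPM). In microglia, 11 of 12 immediate early genes were lower in Lrg1-/- than in WT mice after MCAO/R and 8 of 12 after sham, beside 20.6% and 22.2% of all genes called, with list medians of -1.21 and -0.71 on the log2 scale against 0.09 and -0.03 over all genes. In border-associated macrophages, whose immediate early genes summed to 37820 to 45870 CPM in WT and 12000 to 26510 CPM in Lrg1-/- mice, Ppp1r15a was at 639 to 874 CPM in sham + WT, 742 and 722 CPM in MCAO/R + WT, 247 to 407 CPM in sham + Lrg1-/- and 183 to 214 CPM in MCAO/R + Lrg1-/- mice. It was lower in Lrg1-/- macrophages after sham (-1.09, SE 0.187, edgeR adjusted p = 0.00576) and after MCAO/R (-1.90, SE 0.207, edgeR adjusted p = 7.14e-05). Within Lrg1-/- mice it fell after MCAO/R by 0.79 (SE 0.195, edgeR adjusted p = 0.0218), a call lost without sham + Lrg1-/- replicate 1 (-0.77, 0.0746) or 2 (-0.62, 0.112) and without MCAO/R + Lrg1-/- replicate 1 (-0.74, 0.0513) or 2 (-0.76, 0.0926), and with cells thinned to 1000 UMIs (-0.85, 0.119). The part of dissociation in the Ppp1r15a differences was not tested.

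In oligodendrocytes, immediate early genes summed to 3408 to 5184 CPM in WT and 4769 to 8308 CPM in Lrg1-/- mice, and Ppp1r15a was lower in sham + Lrg1-/- (58.7, 67.6 and 64.2 CPM) than in sham + WT mice (153, 95.7 and 88.8 CPM), with a log2 change of -0.83 (SE 0.205, edgeR adjusted p = 0.0238). That Ppp1r15a call was lost at a Leiden resolution of 1.0 (-0.80, edgeR adjusted p = 0.0519) and without sham + Lrg1-/- replicate 1 (-0.81, 0.0966), 2 (-0.93, 0.0544) or 5 (-0.90, 0.0527). Smooth muscle cells came from a cluster led by Tagln and Acta2 (655 MCAO/R + Lrg1-/-, 134 MCAO/R + WT, 428 sham + Lrg1-/- and 260 sham + WT cells) and one led by Crispld2 and Myh11 (115, 200, 155 and 428 cells), in unequal parts. In vascular smooth muscle cells Ppp1r15a was lower after MCAO/R in Lrg1-/- mice (499 to 680 against 717 to 1115 CPM, -0.71, SE 0.168, edgeR adjusted p = 0.0206) and lower in MCAO/R + Lrg1-/- than in MCAO/R + WT mice (839 and 1059 CPM, -0.67, SE 0.185, edgeR adjusted p = 0.039). Without single mice these values ran from -0.69 to -0.56 in the 4 fits that lost the first call (sham + Lrg1-/- replicate 2 or 5, MCAO/R + Lrg1-/- replicate 2 or 5). They ran from -0.84 to -0.53 in the 6 that lost the second (sham + WT replicate 2 or 3, either MCAO/R + WT mouse, MCAO/R + Lrg1-/- replicate 2 or 5). The second was also lost at a Leiden resolution of 1.0 (-0.42, edgeR adjusted p = 0.132) and with doublets kept (-0.61, 0.0559), and both were lost when only the groups compared were fitted (-0.69, 0.0649, and -0.65, 0.0865). The 12 immediate early genes of these cells summed to 28630 to 30310 CPM in sham + Lrg1-/-, 22550 to 24140 CPM in MCAO/R + Lrg1-/- and 35030 to 35680 CPM in MCAO/R + WT mice. They thus moved in the direction of Ppp1r15a in both of these comparisons. In sham + WT mice they summed to 29550 to 33680 CPM, with Ppp1r15a at 1368 to 1433 CPM. From sham + WT to MCAO/R + WT they were higher and Ppp1r15a lower, without overlap, a Ppp1r15a difference that was not called. After sham, Ppp1r15a was lower in Lrg1-/- than in WT mice without overlap or call, while the immediate early sums overlapped.

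The haemoglobin-led cluster and choroid plexus epithelial cells completed the Ppp1r15a calls. In the haemoglobin-led cluster Ppp1r15a fell from 168 to 484 CPM after sham to 61.4 and 83.5 CPM after MCAO/R in WT mice, whose cells there held little haemoglobin RNA (-2.21, SE 0.412, edgeR adjusted p = 0.00525), and from 122 to 218 CPM to 48.6 to 65.6 CPM in Lrg1-/- mice (-1.52, SE 0.297, edgeR adjusted p = 0.00204). In the same cells the immediate early genes summed to 5255 to 9237 CPM after sham and 3361 to 4107 CPM after MCAO/R in WT mice, and to 9010 to 9364 CPM and 2981 to 4846 CPM in Lrg1-/- mice. They were thus lower after MCAO/R together with Ppp1r15a. The fall in the WT cells was not called without MCAO/R + WT replicate 1 (-1.93, edgeR adjusted p = 0.271). Choroid plexus Ppp1r15a was at 73.9 to 77.5 CPM in MCAO/R + Lrg1-/- and at 180 and 164 CPM in MCAO/R + WT mice (-1.20, SE 0.276, edgeR adjusted p = 0.00738). Choroid plexus immediate early genes summed to 3241 to 5141 CPM in MCAO/R + Lrg1-/- and 5887 to 7740 CPM in MCAO/R + WT mice, in the same direction. The 2 MCAO/R + WT mice had 22 and 76 choroid plexus cells, at 15734 to 26169 UMIs per cell. The MCAO/R + Lrg1-/- mice had 614 to 1247 cells each, at 8211 to 12062 UMIs per cell. Of the choroid plexus cells, the cluster led by Htr2c (median 36778 UMIs) held 141 MCAO/R + Lrg1-/- and 26 MCAO/R + WT cells, and the other clusters 1490 and 895 against 45 and 27. The part of these differences was not tested. The choroid plexus difference was not called without MCAO/R + WT replicate 1 (-1.12, edgeR adjusted p = 0.0546). It was -0.08 under a 10% mitochondrial limit (edgeR adjusted p = 0.953), and 0.10 once each cell was thinned to 1000 UMIs (0.97).

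**Figure D4:**
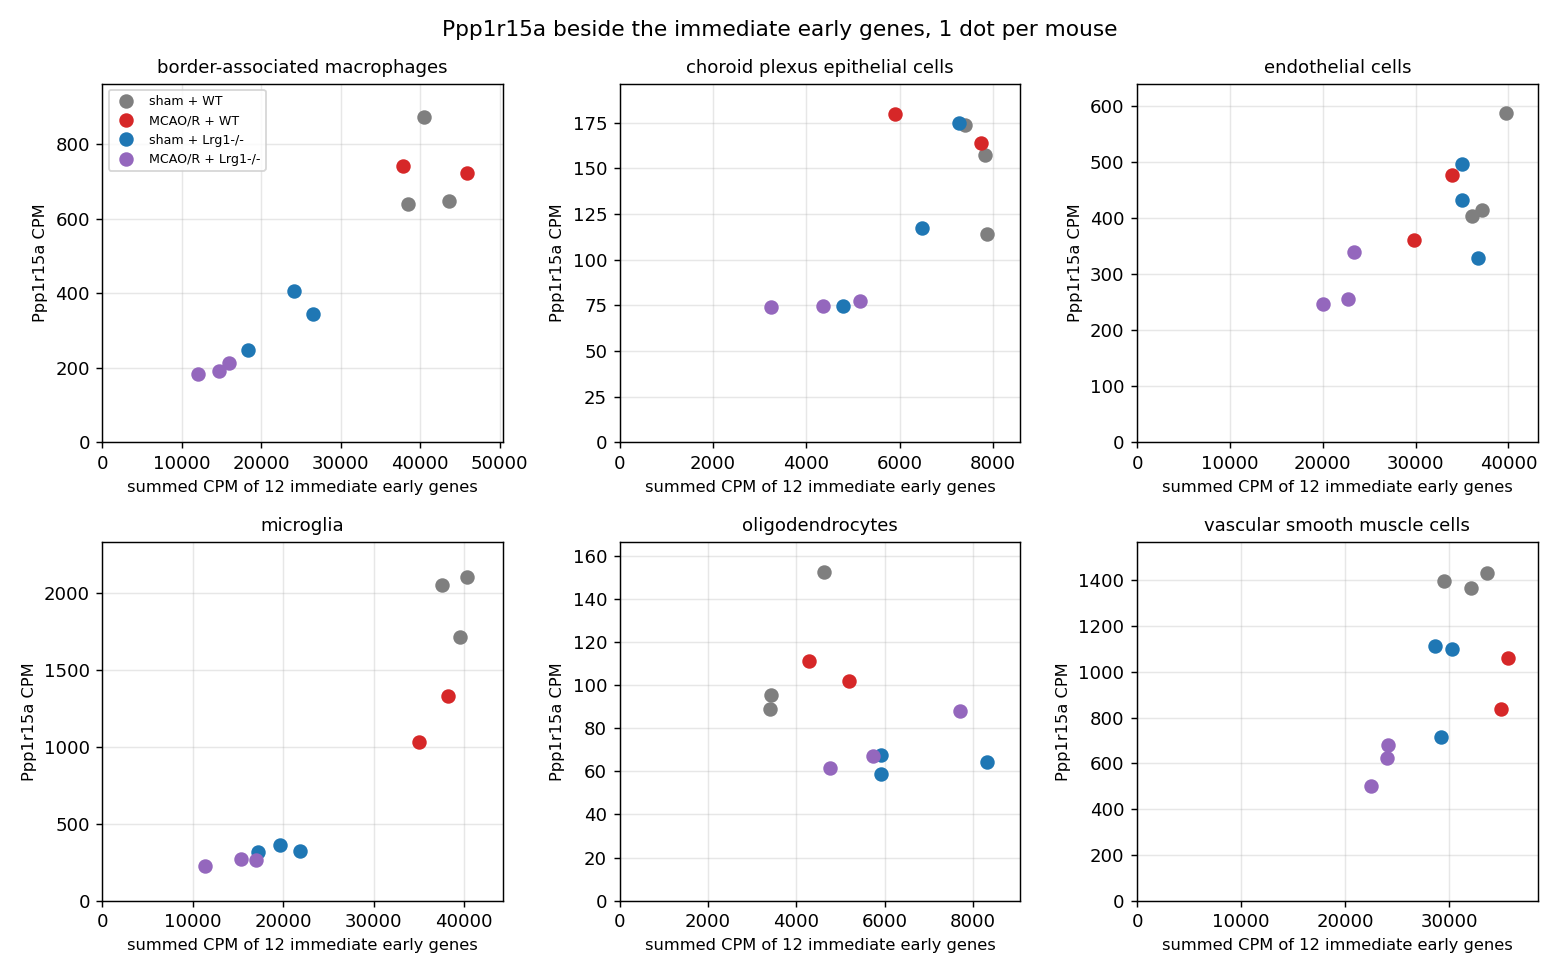
Ppp1r15a (y axis, CPM) against the summed level of 12 immediate early genes (x axis, CPM) in 6 cell types, 1 dot per mouse, coloured by group. In microglia and border-associated macrophages the WT mice are high on both axes, and in oligodendrocytes the Lrg1-/- mice reach up to 8308 CPM of immediate early genes with Ppp1r15a at 58.7 to 87.97 CPM.

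In oligodendrocytes of WT mice, Sesn2, Asns, Atf4 and Atf5 rose after MCAO/R. That is 4 of 8 members tested, all higher, where 22.2% of 16210 genes were called. Chac1 did not pass the filter on low counts there. The cluster led by Slc24a2 held 1776 sham + WT and 825 MCAO/R + WT oligodendrocytes, and the one led by Kcna1 held 847 and 1365. Sesn2 was at 4.02, 3.17 and 3.54 CPM after sham and 11.8 and 14.1 CPM after MCAO/R, a log2 change of 1.86 (SE 0.222, edgeR adjusted p = 5.63e-05). Both stroke mice lay far above every sham mouse, and the call held in each of the 11 fits that left out 1 mouse. Atf4 was at 55.9, 50.9 and 42.3 CPM against 75.4 and 75.2 CPM (0.60, SE 0.141, edgeR adjusted p = 0.00796) and was lost without sham + WT replicate 3 (0.46, edgeR adjusted p = 0.0583). Atf5 was at 7.16 to 8.43 CPM against 11.4 and 13.2 CPM (0.63, SE 0.201, edgeR adjusted p = 0.0391), and Asns at 3.15 to 3.75 CPM against 11.7 and 4.10 CPM (1.14, SE 0.384, edgeR adjusted p = 0.0491). Atf5 lost its call in 8 and Asns in 9 of the 11 fits that left out 1 mouse, among them those without any 1 sham + WT mouse, and without MCAO/R + WT replicate 1 the Asns value was 0.22 (edgeR adjusted p = 0.756). With cells thinned to 1000 UMIs, Atf5 was at 0.02 (edgeR adjusted p = 0.996) and Atf4 at 0.50 (0.0932). The 10% mitochondrial limit also ended the calls of Asns (1.11, 0.052) and Atf5 (0.64, 0.0583). Asns was further lost when only the groups compared were fitted (1.15, 0.0673) and at a Leiden resolution of 1.0 (1.14, 0.0541), and Atf5 with doublets kept (0.55, 0.0635) and without the filter on low counts (0.60, 0.0562).

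After MCAO/R in Lrg1-/- oligodendrocytes, 0 of 8 members were called by edgeR and 0 by DESeq2, 2 had an unadjusted p under 0.05, and 16.5% of all genes were called. Sesn2 was nearest, at 6.88, 5.48 and 3.78 CPM after sham and 8.83, 8.93 and 11.8 CPM after MCAO/R, with no overlap (0.79, SE 0.258, edgeR adjusted p = 0.0535). The test of the difference between genotypes gave -1.07 for Sesn2 (SE 0.346, edgeR adjusted p = 0.113) and 0.81 for Xbp1 (SE 0.236, edgeR adjusted p = 0.0817), so neither stroke effect was shown to differ by genotype.

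Of the 4 transcription factor genes, Atf4 and Ddit3 were higher in Lrg1-/- than in WT oligodendrocytes after sham, and Atf4, Ddit3 and Xbp1 after MCAO/R. The oligodendrocytes of these groups came from partly different clusters. The clusters led by Il33 and by Nfasc (median 2816.5 and 3690 UMIs per cell) held 1715 and 1458 MCAO/R + Lrg1-/- but 375 and 539 MCAO/R + WT cells. Those led by Kcna1 and by Slc24a2 (11500 and 16379 UMIs) held 1070 and 315 against 1365 and 825 cells. After sham, Atf4 was at 93.9, 91.4 and 118 CPM in Lrg1-/- mice, all above the WT mice given above, by 1.01 on the log2 scale (SE 0.138, edgeR adjusted p = 0.000989). Ddit3 was at 48.4, 42.7 and 57.6 CPM against 38.4, 35.1 and 33.9 CPM (0.45, SE 0.131, edgeR adjusted p = 0.0492), a call lost in 10 of the 11 fits that left out 1 mouse. It was also lost without cells over 1% haemoglobin (0.40, edgeR adjusted p = 0.101), with doublets kept (0.33, 0.0885) and without the filter on low counts (0.36, 0.135). With Ppp1r15a lower, that is 2 higher and 1 lower of 8, where 9.06% of genes were called. After MCAO/R, Atf4 (96.5, 120 and 122 against 75.4 and 75.2 CPM, 0.59, SE 0.145, edgeR adjusted p = 0.00864), Ddit3 (48.6, 51.5 and 61.4 against 38.1 and 39.6 CPM, 0.48, SE 0.133, edgeR adjusted p = 0.0153) and Xbp1 (45.4, 61.3 and 66.1 against 37.1 and 29.2 CPM, 0.82, SE 0.169, edgeR adjusted p = 0.00334) were higher. In this comparison 31.8% of all genes were called. Leaving out MCAO/R + WT replicate 2 ended each of the 3 calls (0.58, 0.50 and 0.65, edgeR adjusted p = 0.0659, 0.0825 and 0.058), and leaving out MCAO/R + WT replicate 1 ended that of Ddit3 (0.45, 0.085). With cells thinned to 1000 UMIs, the sham differences of Atf4 (0.64, edgeR adjusted p = 0.127), Ddit3 (0.28, 0.691) and Ppp1r15a (-0.82, 0.3) and the MCAO/R difference of Ddit3 (0.49, 0.137) were not called. Of the 12 immediate early genes, 7 were called higher in Lrg1-/- oligodendrocytes after sham, beside 9.06% of all genes called, and 4 after MCAO/R, beside 31.8%.

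**Figure D5:**
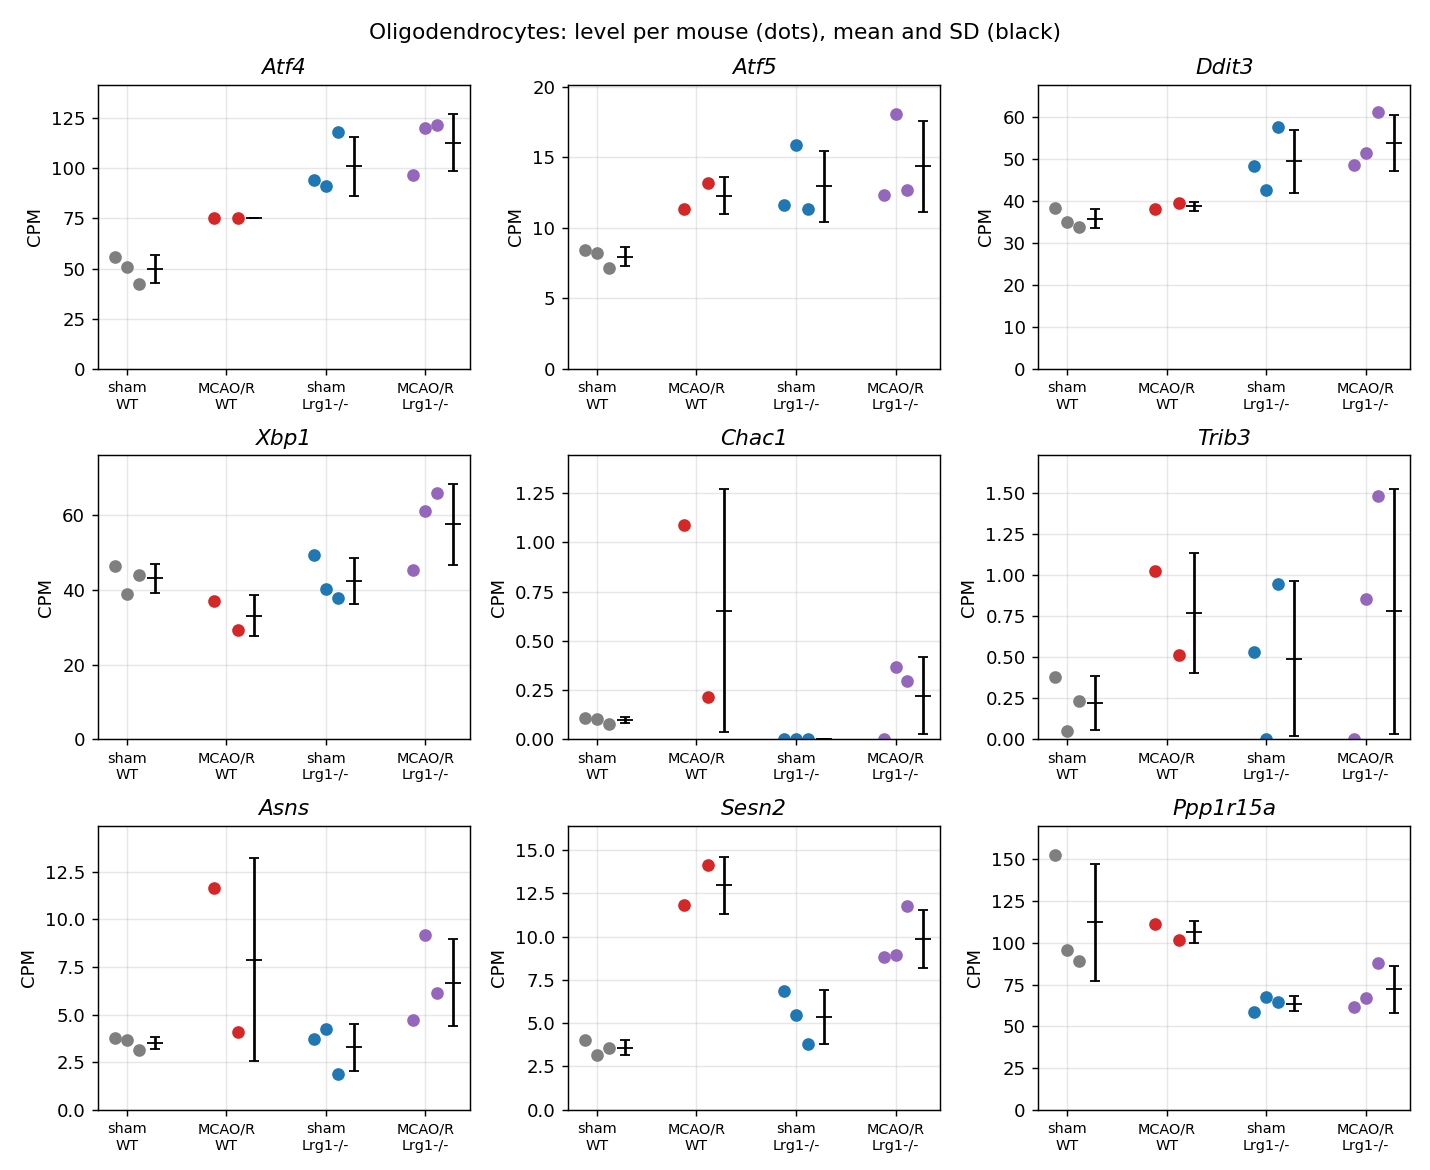
Level of the 9 genes in oligodendrocytes (y axis, CPM from 0, own scale per gene) in the 4 groups (x axis); coloured dots are mice, the black mark and bar are mean and SD. Atf4 is at 42.3 to 55.9 CPM in the sham + WT mice, 75.2 and 75.4 CPM in the MCAO/R + WT mice and 91.4 to 122 CPM in the Lrg1-/- mice, and the mean of Sesn2 is highest in the MCAO/R + WT group.

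In endothelial cells, Xbp1 was the member that rose after MCAO/R in both genotypes. The cells came from partly different clusters. The endothelial cluster led by Hmcn1 and Cxcl12 held 4022 sham + WT, 169 MCAO/R + WT, 795 sham + Lrg1-/- and 101 MCAO/R + Lrg1-/- cells. The one led by Doc2b and Adgrl4 held 291, 2405, 132 and 674. Among these named cells Xbp1 was the 1 call of 9 in each genotype, beside 15.6% of 15496 genes called in WT and 12.7% in Lrg1-/- mice. Xbp1 was at 80.3, 91.3 and 80.3 CPM in sham + WT and 203 and 158 CPM in MCAO/R + WT mice (1.10, SE 0.125, edgeR adjusted p = 0.000157). In Lrg1-/- mice Xbp1 was at 120, 112 and 116 CPM after sham and 163, 205 and 175 CPM after MCAO/R (0.64, SE 0.116, edgeR adjusted p = 0.00571). No stroke mouse overlapped a sham mouse in either genotype, and the difference between these effects was -0.46 (SE 0.171, edgeR adjusted p = 0.212). The CPM count all Xbp1 RNA, and the spliced form that makes the active factor was not told apart.

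After sham, endothelial Xbp1 was higher in Lrg1-/- than in WT mice (0.47, SE 0.115, edgeR adjusted p = 0.0152), as was Atf4, at 277, 286 and 268 against 248, 187 and 192 CPM (0.41, SE 0.121, edgeR adjusted p = 0.0341), 2 of 9 members beside 18.3% of genes. Endothelial Atf4 lost its call without sham + WT replicate 2 (0.34, 0.133) or 3 (0.35, 0.134) and without any 1 of the 3 sham + Lrg1-/- mice (0.38 to 0.43), and Xbp1 without sham + WT replicate 1 (0.42, 0.0559) or 3 (0.43, 0.0652). After MCAO/R, 0 of 9 members were called between genotypes by edgeR and 0 by DESeq2, 3 had an unadjusted p under 0.05, and 24.0% of genes were called. For Xbp1 that difference was 0.01 (SE 0.127), with 181 ± 21.6 CPM in Lrg1-/- (n = 3) and 181 ± 32.0 CPM in WT mice (n = 2). A further endothelial cluster of 80, 1663, 103 and 2793 cells (sham + WT, MCAO/R + WT, sham + Lrg1-/-, MCAO/R + Lrg1-/-) was not part of these values. It was left unnamed because the neutrophil marker Lcn2 is among its leading genes, the first of which is Lrg1. The MCAO/R values above thus rest on 3366 WT and 1665 Lrg1-/- endothelial cells. With that cluster added, the stroke effect on endothelial Xbp1 was 1.46 in WT and 1.02 in Lrg1-/- mice, both called, and the genotype effects after sham were 0.50 for Xbp1 and 0.37 for Atf4, neither called (edgeR adjusted p = 0.0714 and 0.1). Over all cell types, stroke calls were then 11 higher and 2 lower in WT and 8 higher and 5 lower in Lrg1-/- mice. Without the cluster they were 10 and 2, and 7 and 4. Xbp1 was thus not the only endothelial member called for stroke once the cluster was added. Calls for genotype after MCAO/R were 4 higher and 6 lower either way. At a Leiden resolution of 1.0 the stroke effect on Xbp1 was 0.62 in WT (edgeR adjusted p = 0.000804) and 0.31 in Lrg1-/- mice (0.0954). The sham differences were also not called once each cell was thinned to 1000 UMIs (0.45 for Xbp1 and 0.41 for Atf4, edgeR adjusted p = 0.0719 and 0.0649).

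Vascular smooth muscle cells held 4 and the haemoglobin-led cluster 3 of the 41 calls (9.76% and 7.32%), beside 5.93% and 3.61% of the calls over all genes. Endothelial cells held 4 (9.76% beside 16.8%), border-associated macrophages 3 (7.32% beside 6.31%) and choroid plexus epithelial cells 1 (2.44% beside 9.77%). In vascular smooth muscle cells, where Atf5 is most abundant, Atf5 was at 419, 382 and 213 CPM in MCAO/R + Lrg1-/- and 162 and 76.5 CPM in MCAO/R + WT mice (1.49, SE 0.366, edgeR adjusted p = 0.0229). These groups did not overlap, and their cells came from the 2 smooth muscle clusters in the unequal parts given above. The sham + WT mice (223 to 317 CPM) lay within the range of the MCAO/R + Lrg1-/- mice, and the sham + Lrg1-/- mice (154 to 307 CPM) overlapped both MCAO/R groups. The call was lost when only the groups compared were fitted (1.502, edgeR adjusted p = 0.0725) and without MCAO/R + WT replicate 2 (1.004, edgeR adjusted p = 0.225) or MCAO/R + Lrg1-/- replicate 2 (1.39, 0.0579). Xbp1 rose there after MCAO/R in Lrg1-/- mice, from 55.4, 59.2 and 50.5 to 71.7, 110 and 91.7 CPM (0.76, SE 0.204, edgeR adjusted p = 0.0356), lost without any 1 sham + Lrg1-/- mouse or MCAO/R + Lrg1-/- replicate 2 or 5 (0.64 to 0.81) and with cells thinned to 1000 UMIs (0.89, edgeR adjusted p = 0.176). In the haemoglobin-led cluster Asns was at 2.59, 2.82 and 5.06 CPM in sham + Lrg1-/- and 10.4, 17.4 and 7.61 CPM in MCAO/R + Lrg1-/- mice (1.92, SE 0.534, edgeR adjusted p = 0.0218), lost without sham + Lrg1-/- replicate 1 (1.74, 0.121) or 2 (1.82, 0.119) or MCAO/R + Lrg1-/- replicate 2 (1.51, 0.0778) and by DESeq2 (1.83, 0.0609). Ddit3 was called for stroke in 0 of 11 types by edgeR and 0 by DESeq2 in either genotype, with an unadjusted p under 0.05 in 1 type in WT and 3 in Lrg1-/- mice.

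Genes of the pathway outside the 9 were counted by lists. In microglia, 11 of 21 amino acid and one-carbon targets of ATF4 rose after MCAO/R in WT mice (list median 0.64 on the log2 scale, all genes 0.05), and 11 rose and 1 fell in Lrg1-/- mice (0.82 against 0.04). Slc7a11, the cystine importer, went from 7.26 to 10.8 CPM to 84.5 and 275 CPM in WT mice (4.29, SE 0.397, edgeR adjusted p = 1.18e-05), and Psat1, an enzyme of serine synthesis, rose in WT (2.49, SE 0.219, edgeR adjusted p = 7.63e-06) and Lrg1-/- microglia (2.94, SE 0.233, edgeR adjusted p = 1.46e-05). Of 12 aminoacyl-tRNA synthetases, which charge tRNAs with amino acids, 8 rose in each genotype (medians 0.60 and 0.70), with Gars at 0.75 in WT (SE 0.215, edgeR adjusted p = 0.0239) and 1.27 in Lrg1-/- mice (SE 0.215, edgeR adjusted p = 0.00057). Of 16 genes for eIF2alpha kinases, eIF2 and eIF2B, 3 rose and 1 fell in WT and 8 rose and 1 fell in Lrg1-/- microglia (medians 0.19 and 0.57), beside the 21.3% and 35.9% of all genes called. Impact, an inhibitor of the kinase GCN2, fell in both (-0.46, SE 0.12, edgeR adjusted p = 0.0155, and -1.29, SE 0.111, edgeR adjusted p = 1.81e-05).

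Of 19 other ATF4 and CHOP targets tested (of 21), 7 were called lower in MCAO/R + Lrg1-/- than in MCAO/R + WT microglia and the remaining 12 were not called. The list median was -0.40 against 0.09 over all genes, of which 20.6% were called. Ddit4, an mTORC1 inhibitor like Sesn2, was at 6.64 to 13.2 CPM in MCAO/R + Lrg1-/- and 43.1 and 85.7 CPM in MCAO/R + WT mice (-2.78, SE 0.327, edgeR adjusted p = 0.00014). It had risen after MCAO/R in WT (3.63, SE 0.331, edgeR adjusted p = 1.04e-05) and in Lrg1-/- microglia (1.81, SE 0.414, edgeR adjusted p = 0.00398). A further list joined the endoplasmic reticulum stress sensors Atf6 and Ern1 to targets of ATF6 and XBP1, which mostly serve protein folding there. Of these 24 genes, 1 was called higher after MCAO/R in WT microglia (median -0.03), and 16 higher and 1 lower in Lrg1-/- microglia (median 0.97). Between genotypes, 15 were higher and 1 lower in MCAO/R + Lrg1-/- than in MCAO/R + WT microglia (median 0.70). The interaction was called for 13 of the 24, 12 with a larger and 1 with a smaller stroke effect in Lrg1-/- microglia, beside the 8.72% of all genes called. Of 10 genes of the mitochondrial unfolded protein response, a list that includes Atf5, 4 rose and 1 fell in WT and 8 rose in Lrg1-/- microglia (medians 0.56 and 0.74), beside 21.3% and 35.9% of all genes called.

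In oligodendrocytes of WT mice, 8 of 20 tested amino acid targets rose and 4 fell after MCAO/R, and 8 of 19 other targets rose and 1 fell (medians 0.39 and 0.28 on the log2 scale, with 22.2% of all genes called). Cth, which makes cysteine, rose by 3.11 (SE 0.429, edgeR adjusted p = 0.000184) and Ddit4 by 2.38 (SE 0.176, edgeR adjusted p = 1.51e-06). The ATF6 and XBP1 list (sensors and targets) has 24 genes. Of these, 12 were higher and 2 lower in MCAO/R + Lrg1-/- than in MCAO/R + WT oligodendrocytes. The list median was 0.44, and 31.8% of all genes were called. In this comparison Xbp1 was called in 1 of 13 cell types, the oligodendrocytes. Its log2 fold change was above 0 in 12 of the 13 types and ran from -0.23 to 1.14. Whether the list follows Xbp1 was not tested. Genes of the list were also higher where Xbp1 was not called, among them most of the list in microglia. Calr was higher, by 1.27 to 1.73 on the log2 scale, in astrocytes, neurons and neuroblasts, ependymal cells, border-associated macrophages, choroid plexus epithelial cells, fibroblasts and pericytes. Dnajb9 and Ern1 were lower in border-associated macrophages, and Atf6 and Sec24d in choroid plexus epithelial cells. In endothelial cells, where Xbp1 rose in both genotypes, 6 of these 24 genes rose in WT and 9 in Lrg1-/- mice (medians 0.25 and 0.30), beside 15.6% and 12.7% of all genes called, among them Manf, a secreted stress protein, from 86.6 to 105 CPM to 164 and 189 CPM in WT mice (0.87, SE 0.162, edgeR adjusted p = 0.0041).

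Across 156 sums of 1 cell type in 1 mouse (17 cell types, each type's mean subtracted, log2 of CPM + 1), the pattern of Ppp1r15a was most like Jun (Pearson r = 0.81) and Bbc3 (0.77) among 6765 genes. Xbp1 was most like Manf (0.66) and Krtcap2 (0.66), Asns most like Cct6a (0.64) and Rai14 (0.63), Atf5 most like Pdcd5 (0.62) and Pole4 (0.59), and Atf4 most like Sertad1 (0.58) and Mcl1 (0.58). For Sesn2 the leading genes were Slc7a6os (0.53) and Atg13 (0.49), for Chac1 Hnrnpd (0.53) and Psmd11 (0.48), for Ddit3 Btg1 (0.52) and H3f3b (0.47), and for Trib3 Jtb (0.48) and Hspa9 (0.47). Among the members themselves Trib3 and Asns were closest (0.50), followed by Atf4 with Xbp1 (0.41) and Atf5 with Trib3 (0.41), while Ppp1r15a ran from -0.29 to 0.14 with the other 8. These values describe sums that share libraries and depth and carry no test.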

How the data were processed

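Per the labels, cells of each brain were made into 3' libraries with 10x Chromium v3 reagents. The authors deposited filtered gene by cell matrices of raw UMI counts, made with Cell Ranger (7.0.1 in the matrix headers), STAR and mm10 per the labels; no unit other than counts was used. Of 155804 deposited barcodes, cells with over 500 genes, over 1000 UMIs and under 25% mitochondrial UMIs were kept, and 7093 Scrublet doublets were removed (the automatic threshold in 6 libraries, top scores in 5), which left 125344 cells. Total counts per library ran from 37159497 to 171813031, and rare transcripts such as Chac1 rest on few UMIs. Clusters came from 2000 variable genes (members and pathway lists left out), 15 components, 3 neighbours per library and Leiden resolution 0.3, then 0.5 within clusters (scanpy 1.11.5, leidenalg 0.10.2). They were named from marker lists. Of the cells, 92181 were named and 33163 were not, among them 1 cluster of 14469 cells of which 86.2% came from MCAO/R + Lrg1-/- replicate 5. That cluster was led by Arg1 and Gpr84, and its marker scores for red blood cells (0.79) and microglia (0.74) were close.

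Counts were summed per mouse and type (at least 20 cells) and fitted with edgeR 4.0.16 (R 4.3.3): TMM, filterByExpr, all groups in 1 quasi-likelihood model without covariates, since a single group has 2 mice. P-values were adjusted by Benjamini and Hochberg over all genes of a cell type and comparison. The SE is the absolute log2 fold change over the square root of F. Floors and UMI counts cover counting error only. The 9 members are all named; other genes come from 7 pathway lists, as the 2 largest calls in each direction with groups that do not overlap. The members and lists were chosen with earlier results of these data known. Same-numbered mice of different groups were compared within each cell type, so that the same mice recur among the 142 pairs. The correlation of deviations ran from -0.39 to 0.29 (median -0.00), so replicate numbers were not taken to pair mice. Promoter sequences are RefSeq's (GRCm38.p6). Fits were tested on simulated counts. Alternatives were DESeq2 1.42.0, RLE scaling, no filter, a 10% mitochondrial limit, doublets kept, thinning, no cells over 1% haemoglobin, 50 cells per library, only the groups compared, resolution 1.0, a replicate block and each mouse left out; adding the unnamed endothelial cluster was chosen after seeing the data.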

Additional observations from a re-analysis of the deposited data

Results flagged for a closer look

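The stroke effect on Sesn2 in microglia differed between genotypes by a test of the difference itself, with an interaction of -1.18 on the log2 scale (SE 0.222, edgeR adjusted p = 0.0112). This interaction was the 1 call among 80 combinations, beside 1.68% of all genes' combinations. In microglia the same test called 8.72% of genes. The Sesn2 interaction was not called once each cell was thinned to 1000 UMIs (-0.95, edgeR adjusted p = 0.121), nor with a replicate block. Sesn2 was at 17.0 to 25.1 CPM in sham + WT, 39.9 and 41.8 CPM in MCAO/R + WT, 21.1 to 22.8 CPM in sham + Lrg1-/- and 16.9 to 19.98 CPM in MCAO/R + Lrg1-/- mice. Haemoglobin RNA, depth and immediate early genes also differed between the genotypes' libraries, and microglial cluster make-up differed between the groups. Their part in this difference was not tested.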

How the results depend on the processing

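Of 41 called results of single genes, 17 kept their direction and their call in every alternative, other than leaving out a mouse, in which they were tested. In every fit that left out 1 mouse 16 did so, and 12 in both. Not all could be tested in each alternative. Under thinning 22 kept their call, 14 lost it, 1 reversed and the others were not tested. The 1 reversed value was Ppp1r15a in choroid plexus epithelial cells after MCAO/R, at 0.10 when cells were thinned to 1000 UMIs; the cause was not tested. Without the filter on low counts the number of calls became 20 for stroke in WT, 19 for stroke in Lrg1-/-, 20 and 12 for genotype after MCAO/R and sham, and 3 for the interaction. Thinning gave 4 calls for stroke in Lrg1-/- and 3 for genotype after sham, fitting only the groups compared gave 12 for genotype after sham, and DESeq2 gave 2 for the interaction. Leaving out 1 mouse gave 7 to 14 calls for stroke in WT, 6 to 14 for stroke in Lrg1-/-, 4 to 12 for genotype after MCAO/R, 4 to 9 for genotype after sham and 1 to 2 for the interaction. Mice of different groups share only a number. With a replicate block there were 9 and 8 calls for stroke in WT and Lrg1-/-, 8 and 4 for genotype after MCAO/R and sham, and 0 for the interaction by edgeR, where Sesn2 in microglia was -1.19 (adjusted p = 0.0555). The block ended 15 of the 41 calls, among them Ppp1r15a in border-associated macrophages after sham. Adding the unnamed endothelial cluster gave 13, 13, 10, 5 and 1 calls in the same order. Every other alternative left these counts within 1.5 times the reported ones. For the interaction the count under thinning was also 1, but that call was higher, where the reported one was lower. Groups of 2 or 3 mice limit the error of each value, and Chac1, Trib3 and Asns rest on few UMIs.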
